A study of Mus musculus with 12 samples.

Results

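The genes of 10 acute-phase proteins were followed in liver RNA: the serum amyloid A genes Saa1, Saa2, Saa3 and Saa4, the orosomucoid genes Orm1, Orm2 and Orm3, lipocalin 2 (Lcn2), haptoglobin (Hp) and serum amyloid P component (Apcs). They were taken by symbol from a list of acute-phase proteins, and all 10 were present among the 55401 genes of the count table and passed the filter on low counts, which left 13205 genes. Livers came from 6 iTgMir483 and 6 Control female mice at 15 weeks of age, on a C57BL/6J background. iTgMir483 mice carry an inducible copy of Mir483, a microRNA gene within Igf2, at the Rosa26 locus under a Tet-off system, so that it is transcribed as long as no doxycycline is given. In the paper's post-natal design, mothers drank doxycycline through pregnancy and it was then withdrawn, so that expression could run from birth. The line was crossed to CMV-Cre, which is active in most tissues, so the transgene is not restricted to hepatocytes, and Control mice were littermates whose own Cre status the labels do not give. The paper describes a mating of CMV-Cre homozygous females to heterozygous transgenic males, from which every pup would inherit Cre. The library descriptions of both groups read CMVxmiR. Levels are given as CPM, the counts of a gene relative to its library total after TMM scaling (a trimmed mean of gene-wise ratios between libraries). A gene is called changed where it differed by over 1.5-fold with an adjusted p below 0.05.

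The acute-phase response is a switch in the secretory programme of the hepatocyte that follows infection, injury or inflammation. Interleukin-6 acts through STAT3, and interleukin-1 and tumour necrosis factor act through NF-kB and C/EBP factors, to raise transcription of positive acute-phase genes, while genes such as albumin are lowered. In mouse, serum amyloid A1 and A2 are among the proteins that rise most, orosomucoid 1 and haptoglobin are present at rest and rise further, and serum amyloid P component takes the place that C-reactive protein has in humans.

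In these livers, 4 of the 10 genes (Saa1, Saa2, Orm2 and Lcn2) were changed and higher in iTgMir483, 0 were lower, and 6 did not pass the test. Among all genes tested, 8.41% were changed and higher and 2.73% changed and lower. For Saa1, Saa2 and Orm2 the mean difference came almost wholly from livers 1 and 4 of the iTgMir483 group, which held from 96.8% to 99.2% of the group's summed CPM. The call of Lcn2 was the only one of the 4 that remained when these livers were left out. Leaving out liver 4 alone lowered the log2 fold change from 6.07 to 5.02 for Saa1, from 7.04 to 5.98 for Saa2, from 5.16 to 3.51 for Orm2 and from 3.87 to 2.34 for Lcn2, and each call held. With limma-voom 0 of these 4 passed, with adjusted p from 0.0581 for Lcn2 to 0.225 for Saa2. Apcs had the opposite sign, with lower values in 4 iTgMir483 livers than in any Control liver.

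The promoters of the 4 changed genes are shown because these genes were high in the same livers, and so that the letters upstream of their starts can be compared. Each run is the 250 bases before the transcription start in the RefSeq promoter table (GRCm38.p6), read 5′ to 3′ on the strand of the gene. Capitals mark matches to the letters TTGCNNAA (a core of C/EBP sites) or GGGNNNNNCC (a core of NF-kB sites) on either strand.
Saa1, chr7:46742981-46743230, minus strand: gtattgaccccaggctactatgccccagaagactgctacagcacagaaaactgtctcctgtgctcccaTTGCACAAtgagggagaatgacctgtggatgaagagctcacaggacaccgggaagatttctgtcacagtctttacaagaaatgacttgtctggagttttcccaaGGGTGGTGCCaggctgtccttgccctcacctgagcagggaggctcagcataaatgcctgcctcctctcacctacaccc
Saa2, chr7:46751583-46751832, plus strand: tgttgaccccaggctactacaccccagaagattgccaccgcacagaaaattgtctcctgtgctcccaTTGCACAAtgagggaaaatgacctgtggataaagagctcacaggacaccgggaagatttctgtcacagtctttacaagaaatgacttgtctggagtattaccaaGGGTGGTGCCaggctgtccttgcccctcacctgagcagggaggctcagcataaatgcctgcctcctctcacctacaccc
Orm2, chr4:63362199-63362448, plus strand: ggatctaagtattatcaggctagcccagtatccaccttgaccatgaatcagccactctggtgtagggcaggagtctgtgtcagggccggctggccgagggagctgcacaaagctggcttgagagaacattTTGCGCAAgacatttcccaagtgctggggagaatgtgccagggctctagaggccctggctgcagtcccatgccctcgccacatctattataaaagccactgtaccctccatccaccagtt
Lcn2, chr2:32387740-32387989, minus strand: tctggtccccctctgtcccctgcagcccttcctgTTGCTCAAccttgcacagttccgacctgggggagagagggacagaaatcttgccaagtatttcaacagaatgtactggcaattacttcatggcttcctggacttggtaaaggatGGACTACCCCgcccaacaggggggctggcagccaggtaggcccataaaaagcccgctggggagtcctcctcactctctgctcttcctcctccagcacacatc

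Saa1 and Saa2 lie head to head and their promoters were 94.8% identical over the aligned bases, with the C/EBP match at 182 to 175 bases before the start in Saa1 and at 183 to 176 in Saa2. The promoters of Saa1 and Lcn2 were 52.2% identical, and those of Saa1 and Orm2 49.4%. Promoters of 8 of the 10 genes were matched in the table, and those of Orm1 and Hp were not. The C/EBP letters occurred in 7 of these 8 (the exception was Apcs), against 9.56% of 32851 promoters of the same length. The 8 are not independent, since the promoters of Orm2 and Orm3 were 85.5% identical and those of Saa1 and Saa2 94.8%. The NF-kB letters occurred in 4 of 8 (Saa1, Saa2, Saa4 and Lcn2), and in 45.8% of all promoters. The letters TTCNNNGAA, a core of STAT sites, were found in 1 of 8 (Apcs), and in 7.02% of all promoters. Saa3, Saa4 and Orm3 have the C/EBP letters and were not changed. The matches of the different motifs do not overlap each other in these 8 promoters, and a match is a description of letters, not of binding.

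The over-expressed gene checked the labels. Mir483 was at 0 counts in all 6 Control livers, and had 373, 761, 442, 318, 697 and 618 counts in iTgMir483 livers 1 to 6. In CPM these were 27.15, 54.31, 26.51, 23.3, 43.67 and 47.83. Counts from poly(A) RNA are not a measure of the mature microRNA, and the part of its dose in the acute-phase values was not tested. The mature products are shown because their seeds (bases 2 to 8, in capitals) define the sites that were looked for in the acute-phase genes, with RefSeq positions in GRCm38.p6.
miR-483-3p, chr7:142654932-142654952, minus strand: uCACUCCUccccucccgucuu
miR-483-5p, chr7:142654968-142654989, minus strand: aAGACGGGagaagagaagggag

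In the longest annotated 3′ untranslated region of each of the 10 genes, the match to the miR-483-3p seed (AGGAGTG) occurred once, in Saa3, and the match to the miR-483-5p seed (CCCGTCT) occurred 0 times. These regions were 1956 bases long in Saa3, 1524 in Saa4 and 113 to 232 in the other genes. Absence from such short regions says little, and the share of all genes with a match was not computed. Saa3 was not changed.

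Total counts ranged from 12244123 to 30431286 in Control and from 12415140 to 15846175 in iTgMir483 libraries. Of all genes tested, 11.1% were changed, 8.41% higher and 2.73% lower in iTgMir483, and the groups did not overlap in 7.92%. The median log2 fold change was 1.51 over the 10 acute-phase genes and 0.01 over all genes tested, and the groups overlapped in every one of the 10. The value of 1.51 lies between Orm1 (1.03) and Orm3 (1.99), neither of them changed. Without iTgMir483 livers 1 and 4 their log2 fold changes were 0.08 and -0.02. When libraries were scaled by total counts alone, the median over all genes moved to 0.15, and 89.4% of changed genes were higher, against 75.5% with TMM.

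Serum amyloid A genes. Saa1 and Saa2 encode the circulating apolipoproteins of the acute phase, which ride on high-density lipoprotein. Saa1 (ENSMUSG00000074115, GRCm38 chromosome 7, 46740497 to 46742980) lay between 12.1 and 57.0 CPM in Control livers, with a median of 14.1. In iTgMir483 livers 1 to 6 it was at 3356, 16.5, 7.86, 5166, 41.4 and 33.7 CPM. Livers 1 and 4 were 58.8-fold and 90.6-fold above the highest Control liver, while the other 4 fell within or just below the Control range. The means were 21.4 ± 17.5 CPM in Control and 1437 ± 2261 CPM in iTgMir483 (SD, n = 6 each), which gave a log2 fold change of 6.07 with an SE of 1.54 (edgeR quasi-likelihood test with Benjamini-Hochberg adjustment, adjusted p = 0.0143). A two-sided exact permutation test of mean log2(CPM + 0.5) gave p = 0.162, and the ratio of the group medians was 2.66. With livers 1 and 4 left out, a setting chosen after their values were seen, the log2 fold change was 0.21 (edgeR adjusted p = 0.811).

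Saa2 (ENSMUSG00000057465, chromosome 7, 46751790 to 46754313) followed Saa1. Control livers lay between 4.22 and 11.2 CPM, with a median of 6.25. The iTgMir483 livers 1 to 6 had 2076, 11.1, 4.62, 3214, 15.6 and 8.82 CPM. Livers 1 and 4 were again far above the rest, liver 5 was the only other one above every Control liver, and liver 4 exceeded the highest Control liver 288.2-fold. The means were 6.73 ± 2.33 CPM in Control and 888.4 ± 1408 CPM in iTgMir483 (SD, n = 6 each). The log2 fold change was 7.04 (SE 1.64, edgeR adjusted p = 0.00932), the exact permutation p was 0.0476, and the log2 fold change without livers 1 and 4 was 0.58 (edgeR adjusted p = 0.204).

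The transcripts of Saa1 and Saa2 were 87.3% identical, and 9.1% of the 50-base windows of Saa1 occurred unchanged in Saa2, so a part of their reads could not be told apart by sequence. The ratio of Saa1 to Saa2 CPM was 1.62 in iTgMir483 liver 1 and 1.61 in liver 4. It lay between 1.56 and 3.38 in Control livers 2 to 6 and was 9.09 in Control liver 1, where Saa1 was raised and Saa2, at 6.27 CPM, was not.

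Saa3 (ENSMUSG00000040026, chromosome 7, 46711998 to 46715700), the serum amyloid A made mostly outside the hepatocyte, in macrophages and fat, was low in all livers. It lay between 1.41 and 4.27 CPM in Control livers. The iTgMir483 livers had 5.24, 2.43, 1.08, 15.4, 1.88 and 1.55 CPM, and livers 1 and 4 were the highest of the 12. The log2 fold change was 0.82 (SE 0.56, edgeR adjusted p = 0.325), and it was -0.09 without liver 4. Saa4 (ENSMUSG00000040017, chromosome 7, 46727998 to 46732603), the constitutive member of the family, lay between 135.0 and 381.2 CPM in Control livers and between 102.9 and 418.3 CPM in iTgMir483 livers, with a log2 fold change of 0.25 (SE 0.35, edgeR adjusted p = 0.659). Control liver 1, at 381.2 CPM, stood beside iTgMir483 livers 1 and 4, at 356.6 and 418.3 CPM, and every other liver was at or below 187.6 CPM. Without liver 4 the log2 fold change of Saa4 was -0.01.

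**Figure D1:**
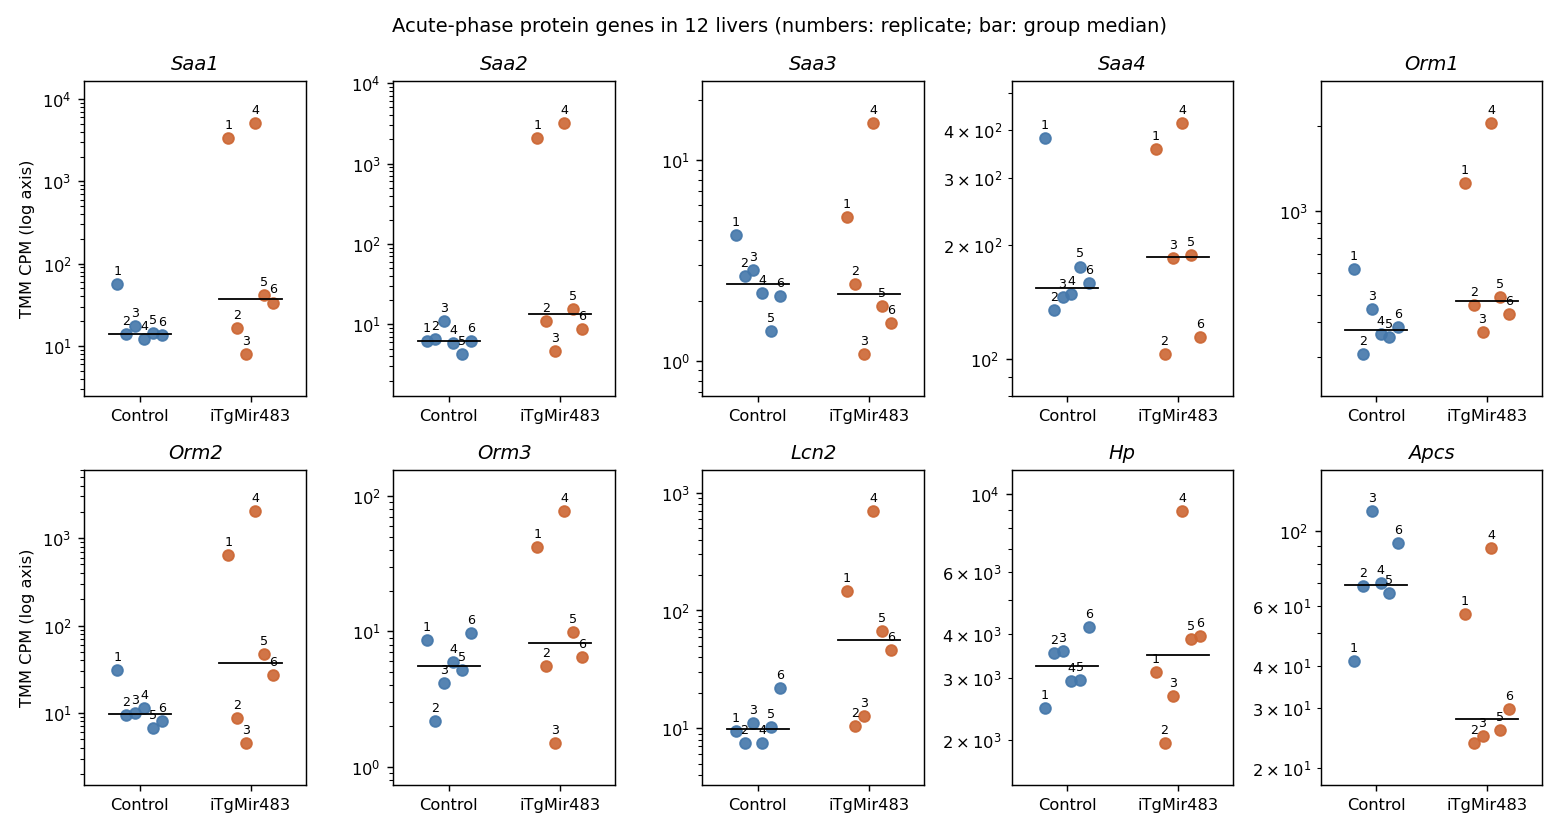
TMM-scaled CPM (log axis) of the 10 acute-phase genes in each of the 6 Control and 6 iTgMir483 livers, with the replicate number above each point and a bar at the group median. Livers 1 and 4 of iTgMir483 are the highest 2 of the 12 for Saa1, Saa2, Saa3, Orm1, Orm2, Orm3 and Lcn2, while for Apcs the other 4 iTgMir483 livers lie below every Control liver.

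Orosomucoids. The Orm genes encode alpha-1-acid glycoproteins, plasma lipocalins that bind drugs and small lipophilic ligands, and lie in a cluster on chromosome 4. Orm1 (ENSMUSG00000039196, 63344560 to 63348163), the main form in resting liver, was between 306.2 and 616.6 CPM in Control livers. The iTgMir483 livers had 1254, 458.2, 368.8, 2061, 489.7 and 428.0 CPM. Livers 1 and 4 were above every Control liver, and the other 4 were within the Control range. The means were 411.8 ± 110.0 and 843.3 ± 681.5 CPM (SD, n = 6 each), and the log2 fold change of 1.03 (SE 0.39) did not pass the test (edgeR adjusted p = 0.0814, exact permutation p = 0.134). With total counts alone as scaling it did (1.15, edgeR adjusted p = 0.0429).

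Orm2 (ENSMUSG00000061540, 63362449 to 63365878) lay between 6.63 and 30.7 CPM in Control livers, with a median of 9.72. The iTgMir483 livers had 635.5, 8.71, 4.5, 2020, 47.5 and 27.2 CPM. Livers 1, 4 and 5 were above every Control liver and liver 3 was below every one. The means were 12.7 ± 8.97 CPM in Control and 457.3 ± 804.2 CPM in iTgMir483 (SD, n = 6 each). The log2 fold change was 5.16 (SE 1.31, edgeR adjusted p = 0.0146), the exact permutation p was 0.128, and the log2 fold change without livers 1 and 4 was 0.78 (edgeR adjusted p = 0.361).

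Orm3 (ENSMUSG00000028359, 63356162 to 63359511) was between 2.19 and 9.78 CPM in Control livers. The iTgMir483 livers had 41.9, 5.57, 1.5, 76.5, 9.84 and 6.50 CPM, with livers 1 and 4 highest and liver 5 just above the highest Control liver. Its log2 fold change of 1.99 (SE 0.73) did not pass the test (edgeR adjusted p = 0.0719, exact permutation p = 0.275). It passed with total counts alone (2.10, edgeR adjusted p = 0.0472) or without iTgMir483 liver 3 (2.24, edgeR adjusted p = 0.0316). Without livers 1 and 4 it was -0.02 (edgeR adjusted p = 0.981).

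Transcripts of Orm1 and Orm2 were 91.0% identical, and 20.4% of 50-base windows of Orm1 occurred in Orm2, so counts of this pair are uncertain to that extent. Orm1 exceeded Orm2 by 20.1-fold to 53.5-fold in Control livers. In iTgMir483 livers 1 and 4 the ratio was 1.97 and 1.02, so that Orm2 came close to Orm1 in liver 4, and in the other iTgMir483 livers it was between 10.3 and 82.0. The order of the iTgMir483 livers from high to low (4, 1, 5, 6, 2, 3) was identical for Saa1, Orm2 and Orm3.

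Lipocalin 2. Lcn2 (ENSMUSG00000026822, chromosome 2, 32384633 to 32388252) encodes a siderophore-binding protein that withholds iron from bacteria and is made by hepatocytes in the acute phase and stored in neutrophil granules. Control livers lay between 7.45 and 22.1 CPM, with a median of 9.79. The iTgMir483 livers 1 to 6 had 145.6, 10.3, 12.7, 694.3, 67.1 and 46.0 CPM. Livers 1, 4, 5 and 6 were above every Control liver, and livers 2 and 3 were inside the Control range. The means were 11.3 ± 5.50 and 162.7 ± 265.1 CPM (SD, n = 6 each), the ratio of medians was 5.78, and the log2 fold change was 3.87 (SE 0.90, edgeR adjusted p = 0.00915, exact permutation p = 0.0195). Without livers 1 and 4 the log2 fold change was 1.61 (edgeR adjusted p = 0.0310), and without Control liver 1 as well it was 1.57 (edgeR adjusted p = 0.0395).

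Summed neutrophil markers and summed macrophage markers were higher in every iTgMir483 liver than in any Control liver. Of 10 macrophage markers, 8 (80%) were changed and higher, against 8.41% of all genes tested. Vsig4 (log2 fold change 0.54, edgeR adjusted p = 0.0527) and Ccr2 (-0.59, edgeR adjusted p = 0.108) did not pass. Cd163, a macrophage receptor outside this list, was changed and lower (-1.36, edgeR adjusted p = 0.00292). Only 3 of 12 neutrophil markers (S100a8, S100a9 and Csf3r) passed the filter on low counts, which a gene can pass through the group where it is high, so their 3 higher calls are not used here. The summed level of the 12 neutrophil markers was 3.64 to 6.34 CPM in Control livers and 7.98 to 35.4 CPM in iTgMir483 livers, with 35.4 CPM in liver 1 and 34.6 CPM in liver 4. The same 3 genes make up most of this sum (Csf3r alone was 15.46 CPM in liver 4), so it is not separate from their calls. Ly6g, which defines neutrophils, had at most 3 counts in every library. Macrophage markers summed to 325.5 to 478.1 CPM in Control and 500.4 to 1476 CPM in iTgMir483 livers, with the highest sum in liver 4 and 606.8 CPM in liver 1. In whole liver, more or fewer cells of a type and more or less RNA per cell cannot be told apart, and the part of these cells in the Lcn2 and Saa3 values was not tested.

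Haptoglobin and serum amyloid P component. Hp (ENSMUSG00000031722, chromosome 8, 109575128 to 109579172), whose product captures free haemoglobin, lay between 2462 and 4191 CPM in Control livers. The iTgMir483 livers had 3115, 1957, 2671, 8937, 3883 and 3962 CPM. Liver 4 alone was above the Control range, 2.13-fold above its highest liver, and liver 1 was inside it. The log2 fold change was 0.32 (SE 0.30, edgeR adjusted p = 0.488, exact permutation p = 0.682) and was -0.07 without liver 4.

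Apcs (ENSMUSG00000026542, chromosome 1, 172893961 to 172895041), a pentraxin of the C-reactive protein family, lay between 41.2 and 113.9 CPM in Control livers. The iTgMir483 livers had 56.9, 23.6, 24.8, 88.7, 25.9 and 29.9 CPM. Livers 2, 3, 5 and 6 were below every Control liver, and livers 1 and 4 were inside the Control range. The means were 75.1 ± 24.9 and 41.6 ± 26.2 CPM (SD, n = 6 each). The log2 fold change of -0.85 (SE 0.33) did not pass the edgeR test (adjusted p = 0.0872), and the exact permutation p was 0.0303. It passed with DESeq2 (-0.86, adjusted p = 0.0397), with limma-voom (-0.99, adjusted p = 0.0470), without Control liver 1 (edgeR, -0.98, adjusted p = 0.0493) and without iTgMir483 liver 4 (edgeR, -1.22, adjusted p = 0.00879). Without both livers 1 and 4 it was -1.53 (edgeR adjusted p = 0.000854).

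**Figure D2:**
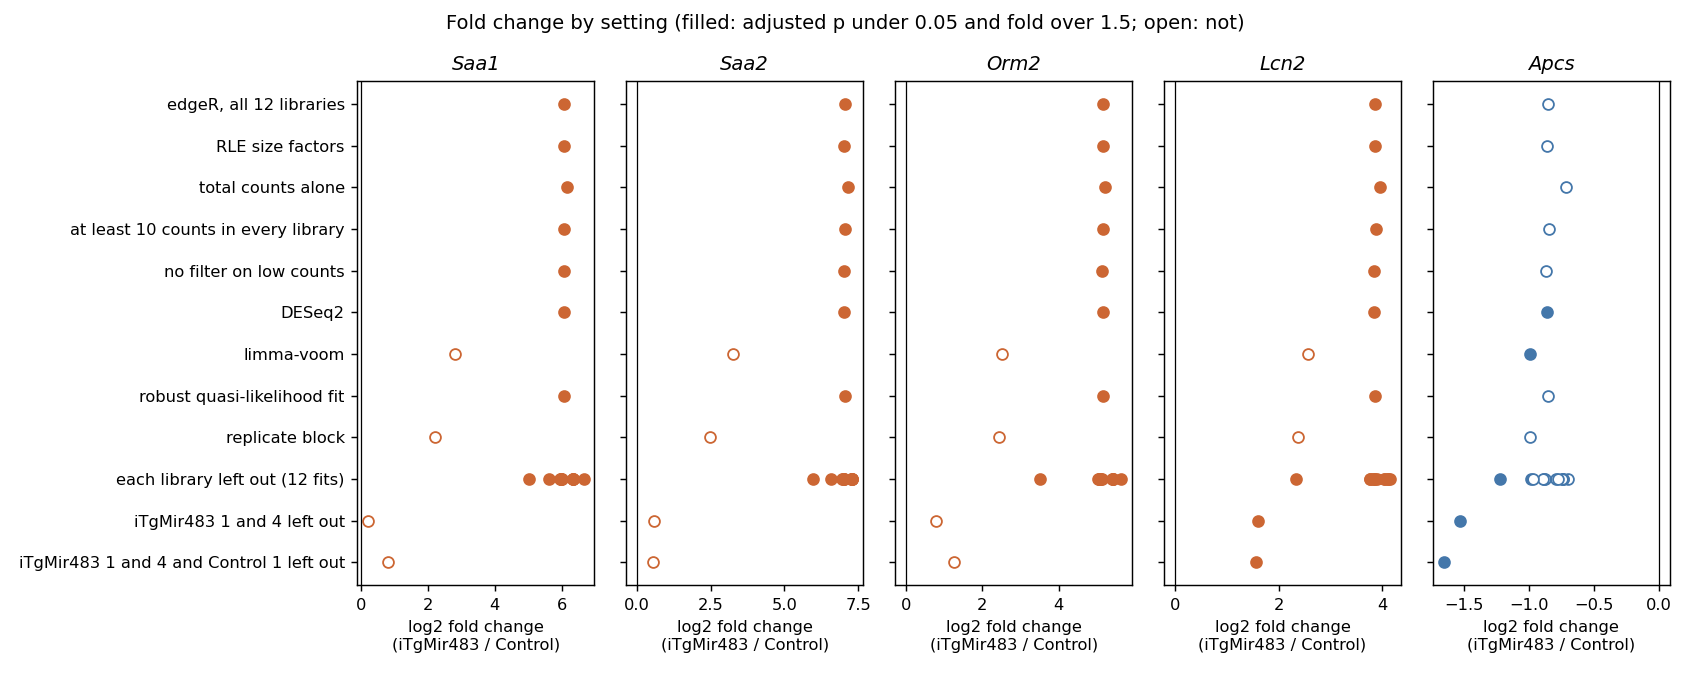
Log2 fold change (iTgMir483 over Control) of the 4 changed genes and Apcs under each setting. Filled points passed the threshold and open points did not. For Saa1, Saa2, Orm2 and Lcn2 all 12 fits that left out a single library passed, limma-voom and the replicate block did not, and without iTgMir483 livers 1 and 4 only Lcn2, at 1.61, and Apcs, at -1.53, passed.

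The smallest p the exact permutation test can give with 6 against 6 livers is 0.0022, and these p values were not adjusted. The labels do not say more about how the mice were related than that Control mice were littermates. Each p value sets a difference between groups against the variation among these livers.

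Livers 1 and 4. In 7 of the 10 genes (Saa1, Saa2, Saa3, Orm1, Orm2, Orm3 and Lcn2) the highest values of the 12 were those of iTgMir483 livers 1 and 4, a pattern looked for after the values were seen. The same was true of 493 of all genes tested, or 3.73%. Liver 4 was above every Control liver in 9 of the 10 genes and liver 1 in 7. Among all genes tested, the share above every Control liver was 28.5% for liver 4 and 23.2% for liver 1, and between 21.9% and 25.6% for the other 4 livers. Livers 2 and 3 were above every Control liver in 0 of the 10 genes and below every one in 3 and 5 of them. Liver 5 was above in 4 and liver 6 in 1.

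Among Control livers, liver 1 stood apart for several of the same genes. Its level was 4.08-fold the median of the other 5 for Saa1, 3.22-fold for Orm2, 2.57-fold for Saa4 and 1.70-fold for Orm1, but 1.01-fold for Saa2 and 0.92-fold for Lcn2. Within the Control group Saa1 and Orm1 had a Pearson r of 0.91 (exact permutation p = 0.022, 0.05 after adjustment over the 18 pairs of both groups, n = 6) and a Spearman rho of 0.54 (exact permutation p = 0.3, adjusted p = 0.49). Without the 2 livers farthest from the Saa1 median, r was -0.30, so the relation rested on those livers. No other gene reached an exact permutation p of 0.05 against Saa1 in the Control livers. In iTgMir483 livers, whose 9 pairs are among the 18, the values fell into separate clusters of fewer than 6 livers each, so no coefficient over that group is given.

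**Figure D3:**
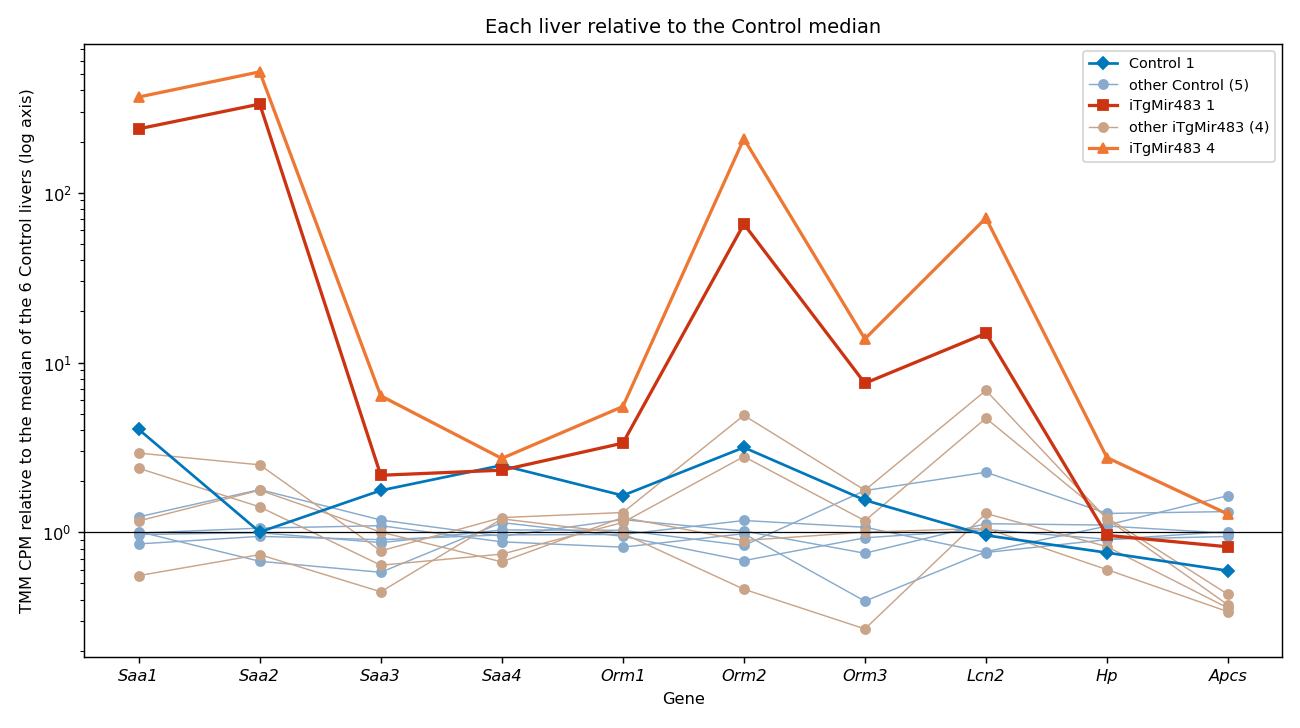
CPM of each of the 12 livers divided by the median of the 6 Control livers (log axis) for the 10 acute-phase genes. iTgMir483 livers 1 and 4 reach 237.7 and 365.9 times the Control median at Saa1 and 332.3 and 514.6 times at Saa2, and Control liver 1 is raised at Saa1, Saa4, Orm1 and Orm2 but not at Saa2 or Lcn2.

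Genes can be ranked by level only per length of transcript. In Control livers the median CPM per kilobase ran from Hp (2411) and Orm1 (482.9) through Saa4 (73.3), Apcs (71.3), Saa1 (23.2), Orm2 (12.5), Lcn2 (10.7), Saa2 (9.58) and Orm3 (7.18) to Saa3 (1.10). The ranges of Hp and Orm1 and of Orm1 and Saa4 did not overlap, nor did those of Orm3 and Saa3, while each other pair of neighbours in this order did. In iTgMir483 liver 4 the order began with Saa1 (8483 CPM per kilobase), Hp (6645), Saa2 (4930), Orm1 (2659) and Orm2 (2607), and in liver 1 with Saa1 (5510), Saa2 (3184) and Hp (2316). Saa1, whose Control median was below those of Hp, Orm1, Saa4 and Apcs, was thus first in both. The lengths are those of a single transcript per gene, and those of Saa3 and Saa4 hold long 3′ ends that lower their values on this scale.

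Other acute-phase genes. Of 31 further positive acute-phase genes listed, 29 were tested, 3 were changed and higher, 2 were changed and lower, and 24 did not pass, with a median log2 fold change of 0.10. The share higher, 10.3%, was near the 8.41% of all genes tested, and the share lower was 6.9%, against 2.73%. Without iTgMir483 livers 1 and 4, 2 were higher and 3 lower. Hamp2, a paralog of the iron hormone hepcidin, was the largest of them, from 86.3 ± 27.0 CPM in Control to 395.6 ± 225.5 CPM in iTgMir483 (SD, n = 6 each, log2 fold change 2.20, edgeR adjusted p = 0.00174). Fgb, the fibrinogen beta chain, was 3886 ± 616.7 and 7838 ± 3410 CPM (1.01, adjusted p = 0.00878), with all 6 iTgMir483 livers above every Control liver. Steap4, a metalloreductase, was also higher (0.87, adjusted p = 0.0166). Serpina3k, a protease inhibitor, was lower (-1.70, adjusted p = 0.00332), as was C-reactive protein, Crp, at 312.9 ± 34.8 and 205.3 ± 39.5 CPM (-0.61, adjusted p = 0.00775). All 6 iTgMir483 livers were below every Control liver for both.

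In this list, iTgMir483 livers 1 and 4 were the 2 highest of 12 for 5 of 29 genes: Fgg (fibrinogen gamma), Itih4, C4b (complement) and the metallothioneins Mt1 and Mt2. None of these 5 passed the test. Liver 4 was above every Control liver in 20 of the 29 genes, or 69.0%, against 28.5% of all genes tested. Liver 6 was above in 12 (41.4%), livers 1 and 5 in 9 each (31.0%), liver 3 in 7 (24.1%) and liver 2 in 2 (6.9%), against 21.9% to 25.6% of all genes tested for these livers. Liver 1 was also below every Control liver in 8 of the 29, or 27.6%, against 22.2% of all genes tested. Metallothionein 2 reached 932.3 CPM in liver 4 and 296.6 CPM in liver 1, against at most 216.2 CPM in Control livers (log2 fold change 1.58, edgeR adjusted p = 0.105), and Itih4 reached 7511 and 3163 CPM against at most 1947 CPM (0.87, edgeR adjusted p = 0.0752).

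Negative acute-phase genes are plasma-protein genes known to fall in the response. Of 14 tested, 0 were higher, 2 (14.3%) were lower and 12 did not pass, with a median log2 fold change of -0.08. The shares of all genes tested were 8.41% higher and 2.73% lower. Rbp4, the plasma retinol carrier (-0.64, edgeR adjusted p = 0.0141), and Igfals, the stabiliser of circulating insulin-like growth factor (-0.81, edgeR adjusted p = 0.00985), were the changed genes. Albumin (Alb) lay between 93610 and 135500 CPM in Control livers and had 48770, 74220, 100200, 36000, 89440 and 107800 CPM in iTgMir483 livers 1 to 6. Livers 4 and 1 had the lowest albumin of the 12, and the difference between groups did not pass (-0.56, edgeR adjusted p = 0.160). Transthyretin (Ttr) did not pass either (-0.19, edgeR adjusted p = 0.497), with its lowest value, 2513 CPM, in liver 4.

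**Figure D4:**
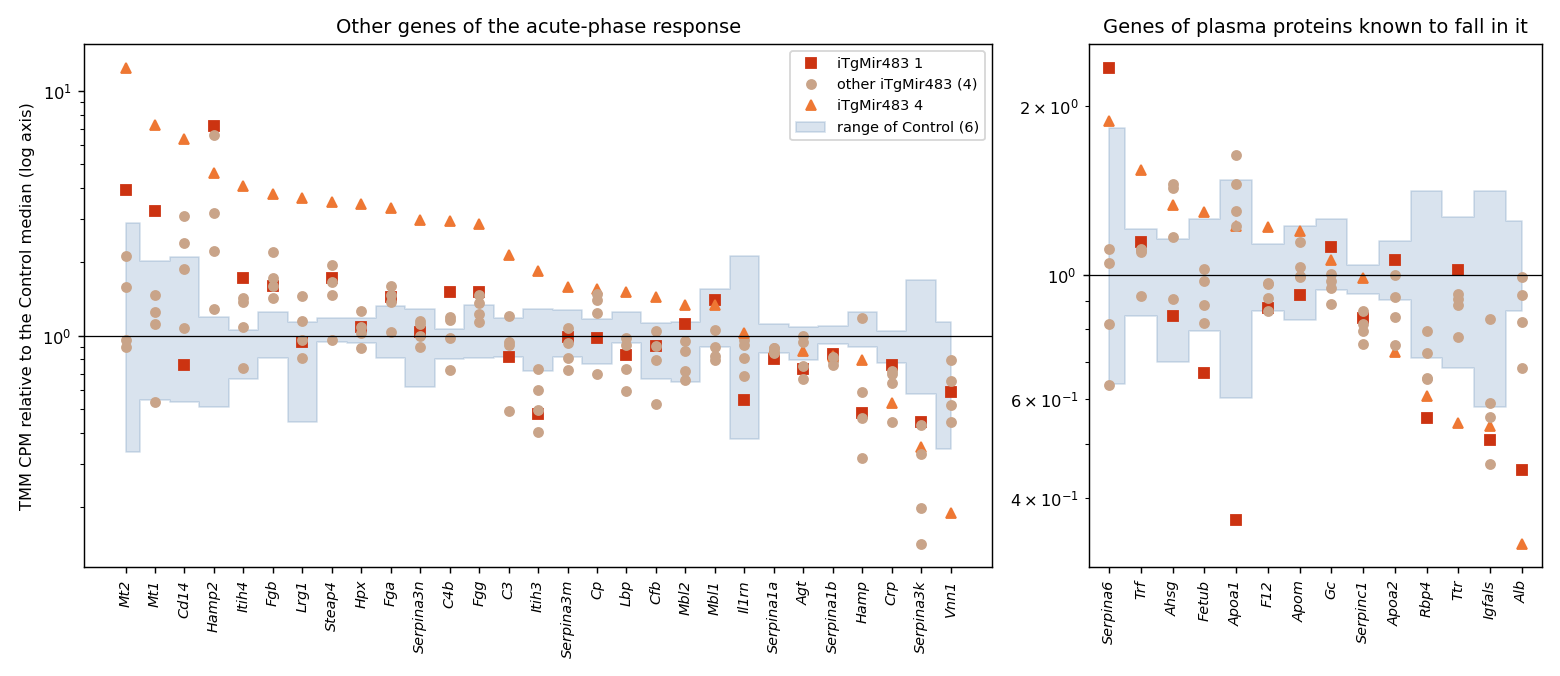
CPM of each iTgMir483 liver divided by the Control median (log axis) for 29 further positive acute-phase genes (left) and 14 negative ones (right), in order of the value of liver 4, with the range of the 6 Control livers shaded. Liver 4 lies above the shaded range in 20 of 29 positive genes, and livers 1 and 4 have the lowest Alb values.

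Inducers and their pathways. Il6 had at most 2 counts and Tnf at most 11 in any library, and both were under the filter. At this depth a difference between groups could not be detected for them. Of 37 cytokine, receptor and transcription factor genes listed, 32 were tested, 6 were changed and higher, 1 was changed and lower, and 25 did not pass, with a median log2 fold change of 0.14. The share higher was 18.8%, against 8.41% of all genes tested. The balance of directions depended on liver 4: without it, 4 were higher and 4 lower, and without livers 1 and 4, 5 were higher and 3 lower. Il1b, interleukin-1 beta, was 2.07 ± 1.15 CPM in Control and 6.29 ± 5.22 CPM in iTgMir483 livers (SD, n = 6 each, log2 fold change 1.62, edgeR adjusted p = 0.0277), with its highest value, 16.6 CPM, in liver 2, where Saa1 was at 16.5 CPM. Relb (1.39, edgeR adjusted p = 0.00174) and Nfkb2 (0.78, edgeR adjusted p = 0.00914), NF-kB subunits, Tlr2, a receptor of bacterial lipoproteins (1.17, edgeR adjusted p = 0.00251), and Tnfrsf1b, a tumour necrosis factor receptor (1.09, edgeR adjusted p = 0.0424), were also higher. The remaining higher gene was Socs3, the feedback inhibitor of STAT3 (0.64, edgeR adjusted p = 0.0338), with 7.72, 8.14, 8.28, 14.7, 9.77 and 13 CPM in iTgMir483 livers and 4.94 to 9.41 CPM in Control livers. Its value in liver 1 was inside the Control range and its value in liver 4 the highest of the 12. Il1rap, the accessory chain of the interleukin-1 receptor, was lower (-0.61, edgeR adjusted p = 0.00863).

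Il6ra, the interleukin-6 receptor (-0.49, edgeR adjusted p = 0.342), Stat3 (0.34, edgeR adjusted p = 0.109), Cebpb (-0.41, edgeR adjusted p = 0.318) and Cebpd (0.30, edgeR adjusted p = 0.628) did not pass. Livers 1 and 4 lay at opposite ends for Cebpd and Cebpb. Cebpd was lowest of the 12 in liver 1, at 1.53 CPM, and highest in liver 4, at 18.03 CPM. Cebpb was likewise lowest in liver 1, at 12.4 CPM, and highest in liver 4, at 51.7 CPM, and Il6ra was below every Control liver in liver 1, at 46.8 CPM (liver 2 was lower still, at 39.7 CPM), and above every one in liver 4, at 199.2 CPM.

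Receptors and partners of the acute-phase proteins were also listed. Of 11, 10 were tested, 4 (40%) were changed and higher, 1 (10%) was changed and lower, and 5 did not pass. The shares of all genes tested were 8.41% higher and 2.73% lower. The median log2 fold change of the 10 was 0.59. Cd163, the macrophage receptor that takes up haptoglobin bound to haemoglobin, was lower at 36.9 ± 8.03 and 14.4 ± 6.11 CPM (SD, n = 6 each, -1.36, edgeR adjusted p = 0.00292), with every iTgMir483 liver below every Control liver. Hmox1, which breaks down the haem so delivered, was higher (1.15, edgeR adjusted p = 0.00556). Slc22a17, a lipocalin 2 receptor (0.86, edgeR adjusted p = 0.00678), Fpr1, a formyl peptide receptor (0.89, edgeR adjusted p = 0.0284), and Ager, a receptor that binds serum amyloid A (1.30, edgeR adjusted p = 0.0193), were higher, at mean levels of at most 5.64 CPM. Ager lay between 0.19 and 0.77 CPM in Control livers and between 0.73 and 1.54 CPM in iTgMir483 livers. It was thus near the filter on low counts, which a gene can pass through the group where it is high. The 40% includes this call and is not read as a result about the list.

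Of 7 hepatocyte markers, 1 (Cps1, 14.3%) was changed and lower, against 2.73% of all genes tested. The 7 summed to 125100 to 171900 CPM in Control and 61780 to 135000 CPM in iTgMir483 livers, with the lowest sums in livers 4 (61780 CPM) and 1 (66770 CPM). Most of this sum is albumin, itself a negative acute-phase gene. Without it the other 6 markers summed to 26530 to 36410 CPM in Control livers and 18000 to 28730 CPM in iTgMir483 livers, with 18000 CPM in liver 1 and 25780 CPM in liver 4, and Asgr1 was highest of the 12 in liver 4, at 704.8 CPM. Blood markers summed to 383.3 CPM in liver 1 and 374.7 CPM in liver 4, and to 86.6 to 241.8 CPM in the other 10 livers, with 0 of 5 changed. Bile duct markers summed to 21.0 to 46.1 CPM in Control and 60.8 to 89.4 CPM in iTgMir483 livers. Most of this sum is Spp1, at 16.2 to 38.0 CPM in Control and 52.0 to 77.1 CPM in iTgMir483 livers. Of 5 tested, 3 (60%) were changed and higher, against 8.41% of all genes tested. Krt7, among these 3, lay at 0.41 to 0.91 CPM in Control and 0.86 to 2.52 CPM in iTgMir483 livers. A gene so near the filter on low counts can pass it through the group where it is high, so the 60% is not read as a result. Krt19 (0.10, edgeR adjusted p = 0.825) and Sox9 (0.26, edgeR adjusted p = 0.425) did not pass. None of the 5 adipocyte markers passed the filter, and Plin1, Lep and Retn had at most 3 counts in every library. The part of cell composition, blood content or hepatocyte RNA in the acute-phase values was not tested.

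The genes whose deviations from the group means were most like those of Saa1 over the 12 livers, among 12482 genes, were Ldhd, a lactate dehydrogenase for the D form (Pearson r 0.97), Prg4, lubricin (0.94), Rbms2 (0.92), Slc3a1 (0.92) and Slc25a44 (0.92). For Lcn2 they were Tmem176b (0.94), Ank (0.94), C4b (0.94), Ctsd (0.93) and Rasl10b (0.93). Among the 10 genes themselves, r with Saa1 was 0.98 for Orm2, 0.97 for Saa2, 0.96 for Orm1, 0.92 for Orm3, 0.90 for Saa3, 0.86 for Lcn2, 0.82 for Saa4, 0.72 for Apcs and 0.56 for Hp. Ldhd was 265.8 CPM in iTgMir483 liver 1 and 234.7 CPM in liver 4, and between 106.3 and 160.2 CPM in the other 10 livers. These values are descriptions that rest largely on livers 1 and 4, share the libraries with Saa1 and were given no test.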

How the data were processed

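Liver RNA of 6 iTgMir483 and 6 Control females was measured by poly(A) RNA-seq. The deposited values were raw counts per gene that the authors made from stranded libraries aligned to GRCm38 with STAR, with Ensembl genes; the strand column used is not given in the sources used here. Reads carry no molecular identifiers, so count floors cover counting error only. Symbols came from GENCODE M21 (GRCm38). The genes, lists and the rule for named genes (the 10 genes, Mir483, changed members of each list, 11 pathway genes whatever their values, and the 5 genes most like Saa1 and Lcn2) were chosen with earlier results of these data known.

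Genes were kept with filterByExpr, scaled by TMM and compared with edgeR's quasi-likelihood test (edgeR 4.0.16, limma 3.58.1, R 4.3.3), adjusted by Benjamini-Hochberg over all 13205 genes tested. SE was obtained from the log2 fold change and F (change over root F). The permutation test covered all 924 assignments of livers. Fits were tested on simulated counts. The library labels share 1 identifier before the index, and no batch was available to fit. Libraries differed beyond sampling noise (smallest chi-square per gene 14.3). Alternatives were RLE factors, total counts, 2 count filters, DESeq2 1.42.0, limma-voom, a robust fit, a replicate block, 2 fold rules and each library left out. Leaving out iTgMir483 livers 1 and 4, with and without Control liver 1, was added after the data were seen.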

Additional observations from a re-analysis of the deposited data

Results flagged for a closer look

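In 9 of 20 groups of 6 livers (10 genes in 2 genotypes), the highest liver stood apart from the others by Dixon's gap ratio, its distance to the next liver divided by the range of the group. The cut-off used flags about 1 in 20 groups of independent, normally distributed values. These values are unlogged CPM of genes measured in the same livers, so that rate need not hold here. Control liver 1 stood apart for Saa1 (57.0 CPM against 12.1 to 17.4, gap ratio 0.881), Saa4 (381.2 against 135.0 to 175.3, 0.836) and Orm2 (30.7 against 6.63 to 11.4, 0.801). iTgMir483 liver 4 stood apart for Lcn2 (694.3 CPM against 10.3 to 145.6, 0.802), Hp (8937 against 1957 to 3962, 0.713), Saa3 (15.4 against 1.08 to 5.24, 0.709) and Orm2 (2020 against 4.50 to 635.6, 0.687). Control liver 6 stood apart for Lcn2 (22.1 CPM against 7.45 to 11.0, 0.757) and Control liver 3 for Saa2 (11.2 against 4.22 to 6.61, 0.655). Saa1 and Saa2 in iTgMir483 were not singled out by this measure, since livers 1 and 4 are both high and neither is alone.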

How the results depend on the processing

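Over the 10 genes and 20 planned settings, 185 of 200 values kept their side of the threshold, 8 lost the call, 7 gained it and 0 called values reversed. With limma-voom the log2 fold change fell to 2.79 for Saa1 (adjusted p = 0.186), 3.24 for Saa2 (0.225), 2.51 for Orm2 (0.205) and 2.57 for Lcn2 (0.0581). With a replicate block these were 2.20 (edgeR adjusted p = 0.224), 2.48 (0.260), 2.44 (0.118) and 2.37 (0.0532). The shared numbers did not pair the livers throughout, since 4 of 6 pair correlations were under 0.1 (range 0.025 to 0.47). The highest, 0.47, was that of Control liver 1 with iTgMir483 liver 1, and its cause was not tested. Without iTgMir483 livers 1 and 4 and Control liver 1, the log2 fold changes were 0.80 for Saa1 (edgeR adjusted p = 0.120), 0.56 for Saa2 (0.232), 1.25 for Orm2 (0.0881) and -1.65 for Apcs (4.83e-05). Without iTgMir483 livers 1 and 4 alone they were 0.21, 0.58, 0.78 and -1.53. Apcs passed with DESeq2 (-0.86) and limma-voom (-0.99), and Orm1 (1.15) and Orm3 (2.10) passed with total counts. Leaving out 1 library gave 1.14 to 2.24 for Orm3 and -1.22 to -0.69 for Apcs, and 5.02 to 6.65 for Saa1, 5.98 to 7.31 for Saa2, 3.51 to 5.64 for Orm2 and 2.34 to 4.15 for Lcn2, whose calls all held. Of the 10 genes, 4 were changed, against 1 with limma-voom, 0 with the block, 2 in a test that requires over 1.5-fold (glmTreat), and 2 in each of both fits without livers 1 and 4. All changed genes numbered 1470, 226 with glmTreat and 2457 by adjusted p alone. Of the further positive genes, 5 were changed, 8 with total counts, 8 with DESeq2 and 8 without iTgMir483 liver 2. Of the negative genes, 2 were changed, 1 with total counts, 1 without Control liver 6 and 1 without iTgMir483 livers 1 and 4. Of the cytokine and signalling genes, 7 were changed and 4 without Control liver 2 or 4. The cause of these shifts was not tested. Depth limits the low genes, and Il6 and Tnf could not be compared.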
